A study of Mus musculus with 6 samples.

Results

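The S100 proteins are small calcium-binding proteins with paired EF-hand motifs, and the genes measured here were S100a1, S100a4, S100a6, S100a8, S100a9, S100a10, S100a11, S100a13, S100a16 and S100b of the mouse. Each gene was read from the non-control probes whose array annotation names it. All 10 of 10 genes had such probes, 226 in all with shared probes counted once. On both array designs together, 471870 probes were kept and 16533 genes had enough probes to be measured. The genes were proposed with results of these data known: S100a11 was already known to have one of the largest enrichments of TEAD4 over input, so the values over input are given as a description with no test.

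S100 proteins are mostly dimers that change shape on binding calcium and then attach to target proteins such as annexins, and some are also secreted and act on receptors. Of the genes measured here, 9 lie on chromosome 3, where the mouse has its S100 cluster, and S100b lies on chromosome 10. TEAD4 is a DNA-binding transcription factor that recruits the co-activators YAP and TAZ, often beside AP-1 sites, and its own DNA element is the MCAT element of muscle promoters.

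ChIP-chip, in which precipitated chromatin is read on promoter arrays, was done in C2C12 myotubes, formed from a line of mouse myoblasts when serum is low. There were 2 TEAD4 samples, called duplicates in the labels, from cells infected with a retrovirus for Flag-HA-tagged TEAD4, and 1 control sample from cells that carried the empty vector. Both were infected cell pools under puromycin selection, which spent 5 days in differentiation medium (2% horse serum) before 10 min of fixation with 0.4% formaldehyde. Anti-Flag precipitated DNA (IP, Cy5) was hybridised against input DNA (Cy3) on 2 Agilent promoter array designs, with 4 µg of each labelled, so each sample took 2 arrays. The tagged TEAD4 came from the vector and added to the cells' own genes, and the labels do not say which promoter drove it. Muscle markers could not be checked in arrays of precipitated DNA, and the labels leave unsaid if the duplicates were separate cultures, so their spread may be technical.

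The value of a probe was log2 of IP over input, centred on the array's median, so that 0 is the typical probe. Probes were averaged in windows that reached 500 bp to either side of a probe, and windows with fewer than 3 probes were dropped. A gene was called enriched when a window was at least 2-fold over input (log2 of 1) in both TEAD4 samples. Distances are from the start that the array annotation gives, with negative values upstream, and coordinates are as the files give them, and their genome build was not stated in the sources used.

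The control arrays had a lower IP signal and a wider spread than the TEAD4 arrays. The median IP signal was 3.63 to 5.41 times the local background on the TEAD4 arrays, against 1.84 and 2.04 times on the control arrays. The SD over all windows was 0.38 and 0.40 in the TEAD4 samples, against 1.04 in the control. Neighbouring probes of the S100 genes differed by a median of 0.313 and 0.361 log2 units in the TEAD4 samples, against 1.12 in the control. The control IP was not well above background at 10 of the 226 probes, and the TEAD4 IP at 0 of 226. Each sample was scanned on a day of its own and the control arrays alone were extracted with extended dynamic range, so scan batch and group cannot be told apart.

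Promoter sequences are shown for the enriched genes that had a RefSeq promoter: S100a11, S100a6, and S100a16 at both of its RefSeq starts. The printed stretches need not hold the enriched windows. S100a16 had 1 enriched window, centred on -3694, and none at its downstream start. They run from 250 bases before to 50 bases after the start, 5′ to 3′ on the gene's strand, and come from RefSeq on build GRCm38.p6, which held a promoter for 9 of the 10 genes, all but S100a10. Capitals mark matches to the AP-1 site TGANTCA. The 4 regions are, in the same order, chr3:93520246-93520545, chr3:90612644-90612943, chr3:90537004-90537303 (upstream start) and chr3:90540896-90541195 (downstream start), all on the plus strand.
S100a11: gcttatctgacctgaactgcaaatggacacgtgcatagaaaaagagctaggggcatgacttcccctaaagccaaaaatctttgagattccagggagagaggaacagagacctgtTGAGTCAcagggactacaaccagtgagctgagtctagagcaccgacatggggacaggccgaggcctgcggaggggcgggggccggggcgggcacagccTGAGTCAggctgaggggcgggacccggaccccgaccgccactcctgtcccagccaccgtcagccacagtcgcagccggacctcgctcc
S100a6: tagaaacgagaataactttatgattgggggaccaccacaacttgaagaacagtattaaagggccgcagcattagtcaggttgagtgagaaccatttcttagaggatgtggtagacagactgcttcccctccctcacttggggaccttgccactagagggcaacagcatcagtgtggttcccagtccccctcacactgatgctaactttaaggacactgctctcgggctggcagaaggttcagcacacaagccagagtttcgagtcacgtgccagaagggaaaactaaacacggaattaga
S100a16 upstream start: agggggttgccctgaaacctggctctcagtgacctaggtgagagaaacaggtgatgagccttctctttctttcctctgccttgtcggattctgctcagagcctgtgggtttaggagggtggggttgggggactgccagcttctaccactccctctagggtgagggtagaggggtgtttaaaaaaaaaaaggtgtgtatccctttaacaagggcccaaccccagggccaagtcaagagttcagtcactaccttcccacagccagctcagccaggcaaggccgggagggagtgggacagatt
S100a16 downstream start: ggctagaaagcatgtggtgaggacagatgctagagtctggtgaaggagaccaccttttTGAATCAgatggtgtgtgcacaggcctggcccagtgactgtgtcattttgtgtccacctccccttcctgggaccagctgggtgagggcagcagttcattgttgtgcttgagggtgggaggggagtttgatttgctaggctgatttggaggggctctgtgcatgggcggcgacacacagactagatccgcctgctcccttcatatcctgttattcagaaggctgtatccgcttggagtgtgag

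The S100a11 promoter held 2 AP-1 matches, beginning at -136 and -38. The promoter of the downstream S100a16 start, which had no enriched window, held 1, at -192. The other S100 promoters held 0, and 7.81% of 32851 mouse promoters in the same table held 1 or more. Neither the MCAT core GGAATG nor the longer form ACATTCCA matched on either strand in any S100 promoter. The core was present in 14.7% and the longer form in 1.35% of all promoters. The E-box letters CANNTG were present in 72.3% of all promoters. CC and GG with any 6 bases between them, which is far looser than a CArG box and can overlap the E-box, were present in 73.3%. The S100a11 promoter held 15 CpG, S100a13 14 and S100a1 11, while S100a6 held 6 and the 2 S100a16 promoters 2 and 4, with a median of 7 over all promoters. The S100a13 and S100a1 promoters overlap, so their CpG counts share bases, and neither gene was enriched for TEAD4. Whether CpG content bears on the enrichment was not tested. These matches are letters in a 300-base stretch and describe no site.

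**Figure D1:**
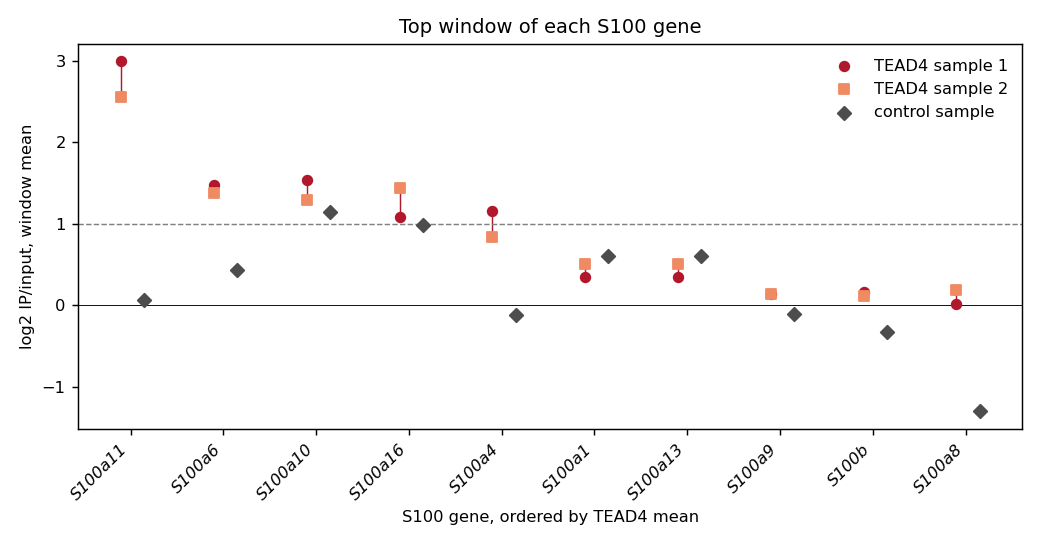
Log2 IP/input (y axis) of the window with the highest TEAD4 mean in each S100 gene (x axis), with the 2 TEAD4 samples as a red circle and an orange square and the control sample as a grey diamond. The dashed line marks 2-fold over input. S100a11 stands at 2.99 and 2.55 in the TEAD4 samples with the control at 0.06, while S100a9, S100b and S100a8 lie near 0 in the TEAD4 samples.

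S100a11, known for binding annexin A1 and for a part in membrane repair, had the highest TEAD4 enrichment of the family. Its top window gave a log2 IP/input of 2.99 and 2.55 in the TEAD4 samples, against 0.06 in the control. The mean was 2.77 ± 0.31 (SD, n = 2), or 6.83-fold over input, which placed it at rank 5 of 16533 genes by this value. Both TEAD4 samples were far above the control there, and the same window was also the highest in each TEAD4 sample taken alone. The window held 3 probes centred on +2352, chr3:93608024-93608435, which the array annotation places inside the gene. Whether it is exonic or intronic is not given in the annotation used here.

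TEAD4 signal at S100a11 lay inside the gene and not upstream of it. Of 11 probes inside, 6 reached 2-fold over input in both TEAD4 samples, while 0 of 24 upstream probes did. They formed 2 runs with 4 probes between them that did not reach the rule. The first run, of 3 probes from +286 to +740 (chr3:93606163-93606667), averaged 2.59 and 1.77 in the TEAD4 samples, against 0.97 in the control. Its control value rests on 1 of the 3 probes, since the control probes read -0.20, 3.39 and -0.29. Between the runs, the probe at +1147 read 0.79 and 1.62 in the TEAD4 samples, against -0.81 in the control. The next, at +1362 and +1601, lay between 0.24 and 0.79 in the TEAD4 samples, and the probe at +1762 averaged 0.86 in the TEAD4 samples, against 0.28 in the control. The values between the runs were thus lower but not at input level throughout.

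The second run is the top window itself, and its last 2 probes were higher than the first in both TEAD4 samples. The probe at +2154 read 2.08 and 1.86 in the TEAD4 samples, against 0.16 in the control. The probe at +2352 averaged 3.22 in the TEAD4 samples, against 0.34 in the control. The last probe, at +2511, read 3.55 and 2.70 in the TEAD4 samples, against -0.32 in the control. The next probe on the array was 27022 bp away, so where this signal ends was not measured.

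The stretch from 250 bp upstream to 50 bp downstream of the array's start averaged 0.38 and 0.29 in the TEAD4 samples over 2 probes, against 1.08 in the control. From +51 to +1000, 4 probes averaged 2.05 and 1.69 in the TEAD4 samples, against 1.32 in the control. Beyond +1000, 7 probes averaged 1.71 and 1.55 in the TEAD4 samples, against -0.28 in the control. The 22 probes more than 250 bp upstream averaged -0.16 and -0.08 in the TEAD4 samples, against -0.06 in the control. How the printed promoter lies on these distances depends on the alignment of the builds. Aligned at the start that RefSeq's gene table gives for the neighbour S100a10, the RefSeq start of S100a11 falls on the array's start (a difference of 0 bp). Aligned at the more distant S100a6 it falls at +523, within the first run. The spacing of the S100a10 and S100a11 starts, 34621 bp, was the same on the array and in RefSeq, so the nearer alignment is used here. On it, the AP-1 matches at -136 and -38 lie nearest the probes at -171 and -13. The probe at -171 read 0.59 and 0.52 in the TEAD4 samples, against 0.19 in the control. The probe at -13 read 0.18 and 0.06 in the TEAD4 samples, against 1.98 in the control. Neither reached 2-fold over input in a TEAD4 sample.

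**Figure D2:**
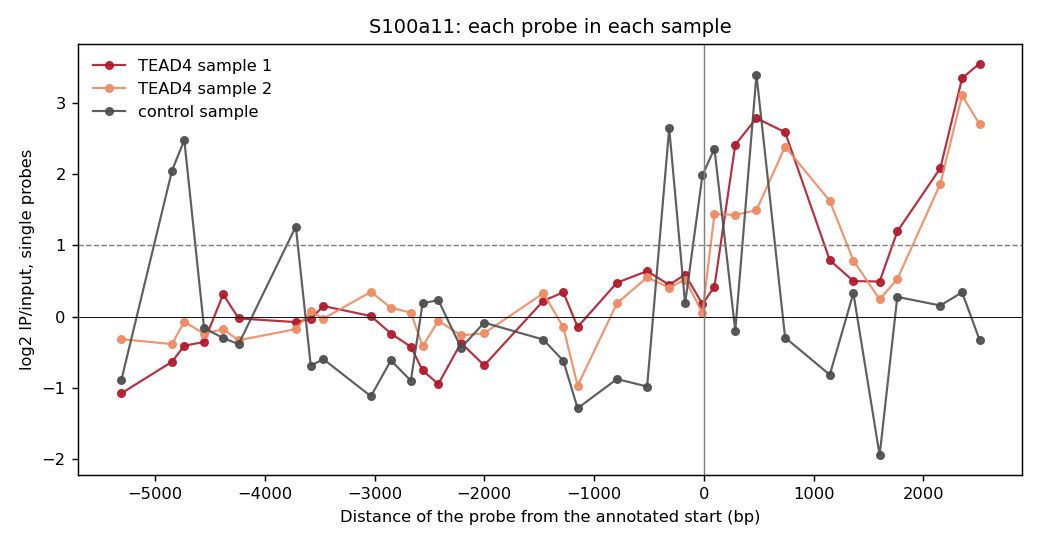
Log2 IP/input of each S100a11 probe (y axis) against its distance in bp from the annotated start (x axis), in TEAD4 sample 1 (red), TEAD4 sample 2 (orange) and the control sample (grey). Both TEAD4 lines are raised from +286 to +740 and from +2154 to +2511, while the control line jumps between single probes.

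S100a6 (calcyclin), which binds the ubiquitin-pathway protein CacyBP, was second in the order of means. Its top window, 5 probes centred on +244 (chr3:90698826-90699500), gave 1.48 and 1.38 in the TEAD4 samples, against 0.43 in the control. The mean was 1.43 ± 0.07 (SD, n = 2), at rank 487. Both TEAD4 samples were above the control, whose single probes in this window ran from -1.10 to 2.13. A single probe at +508 carried much of it, with 3.66 and 2.65 in the TEAD4 samples, against 0.53 in the control. The run of 3 probes from +379 to +655 (chr3:90699177-90699500) averaged 2.12 and 1.65 in the TEAD4 samples, against 0.09 in the control. Of its 20 windows, 5 were enriched, each of them holding the probe at +508. Of its 4 upstream probes, 0 were at least 2-fold over input in both TEAD4 samples.

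S100a10 (p11), the partner of annexin A2 at membranes, lies next to S100a11 on chromosome 3. Its top window, 4 probes centred on +352 (chr3:93640532-93641359), gave 1.53 and 1.29 in the TEAD4 samples, against 1.14 in the control. The mean was 1.41 ± 0.18 (SD, n = 2), at rank 521, and the control lay just below the TEAD4 pair. The control level came from the probe at +34, which read 2.33 and 0.84 in the TEAD4 samples, against 4.53 in the control, where the IP was not well above background at 1 of the 4 probes. The probe at +602 read 1.66 and 2.02 in the TEAD4 samples, against -1.12 in the control. TEAD4 signal at S100a10 was spread over the start, with 4 probes at least 2-fold over input in both samples, at -462, +602, +1058 and +1839.

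S100a16, a broadly expressed member, was enriched far upstream of its annotated start. Its top window, 4 probes centred on -3694 (chr3:90622954-90623478), gave 1.09 and 1.43 in the TEAD4 samples, against 0.99 in the control. The mean was 1.26 ± 0.25 (SD, n = 2), and the control lay within 0.1 of the lower duplicate. The 2 probes at -3874 and -3694 averaged 1.49 and 2.00 in the TEAD4 samples, against 1.49 in the control, so TEAD4 sample 1 and the control had the same level there. The array annotation places this window's centre 156 bp inside the start of another transcript, and RefSeq has an upstream S100a16 start nearby. With array and RefSeq coordinates aligned at S100a6, that start falls at -3969 and the downstream one at -77 in the array's distances. At the array's own start, the probe at -50 read 0.44 and 0.54 in the TEAD4 samples, against 0.29 in the control.

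S100a4, which binds non-muscle myosin IIA and is linked to cell motility, fell just short of the 2-fold rule. Its top window, 5 probes centred on +673 (chr3:90690120-90690850), gave 1.16 and 0.83 in the TEAD4 samples, against -0.12 in the control. The mean was 0.99 ± 0.23 (SD, n = 2). By the lower of the 2 duplicates, the value that decides the rule, S100a16 was just inside at 1.09 and S100a4 just outside at 0.83. Upstream of S100a4 the order turned round, with the 5 probes more than 250 bp upstream averaging -0.10 and 0.09 in the TEAD4 samples, against 1.75 in the control.

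S100a1, the main family member of heart and skeletal muscle and a regulator of the ryanodine receptor, shared its promoter with S100a13, which takes part in the release of Fgf1. These genes run head to head and share 3 probes and their top window (chr3:90600262-90600998). That window gave 0.35 and 0.51 in the TEAD4 samples, against 0.61 in the control. The mean was 0.43 ± 0.11 (SD, n = 2), close to the median of 0.40 over all genes, and the control was above both TEAD4 samples.

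S100a8 and S100a9, which form the calprotectin complex of neutrophils, and S100b, best known from astrocytes, had TEAD4 values near 0. For S100a9 the top window gave 0.14 and 0.14 in the TEAD4 samples, against -0.10 in the control. For S100b it gave 0.16 and 0.11 in the TEAD4 samples, against -0.33 in the control. For S100a8 it gave 0.02 and 0.18 in the TEAD4 samples, against -1.30 in the control. These genes lay between ranks 13945 and 14561 of 16533. S100a8 stood apart in the control, where its highest window was at -0.58. S100b was on the other array design, which was normalised separately from that of the other 9 genes.

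**Figure D3:**
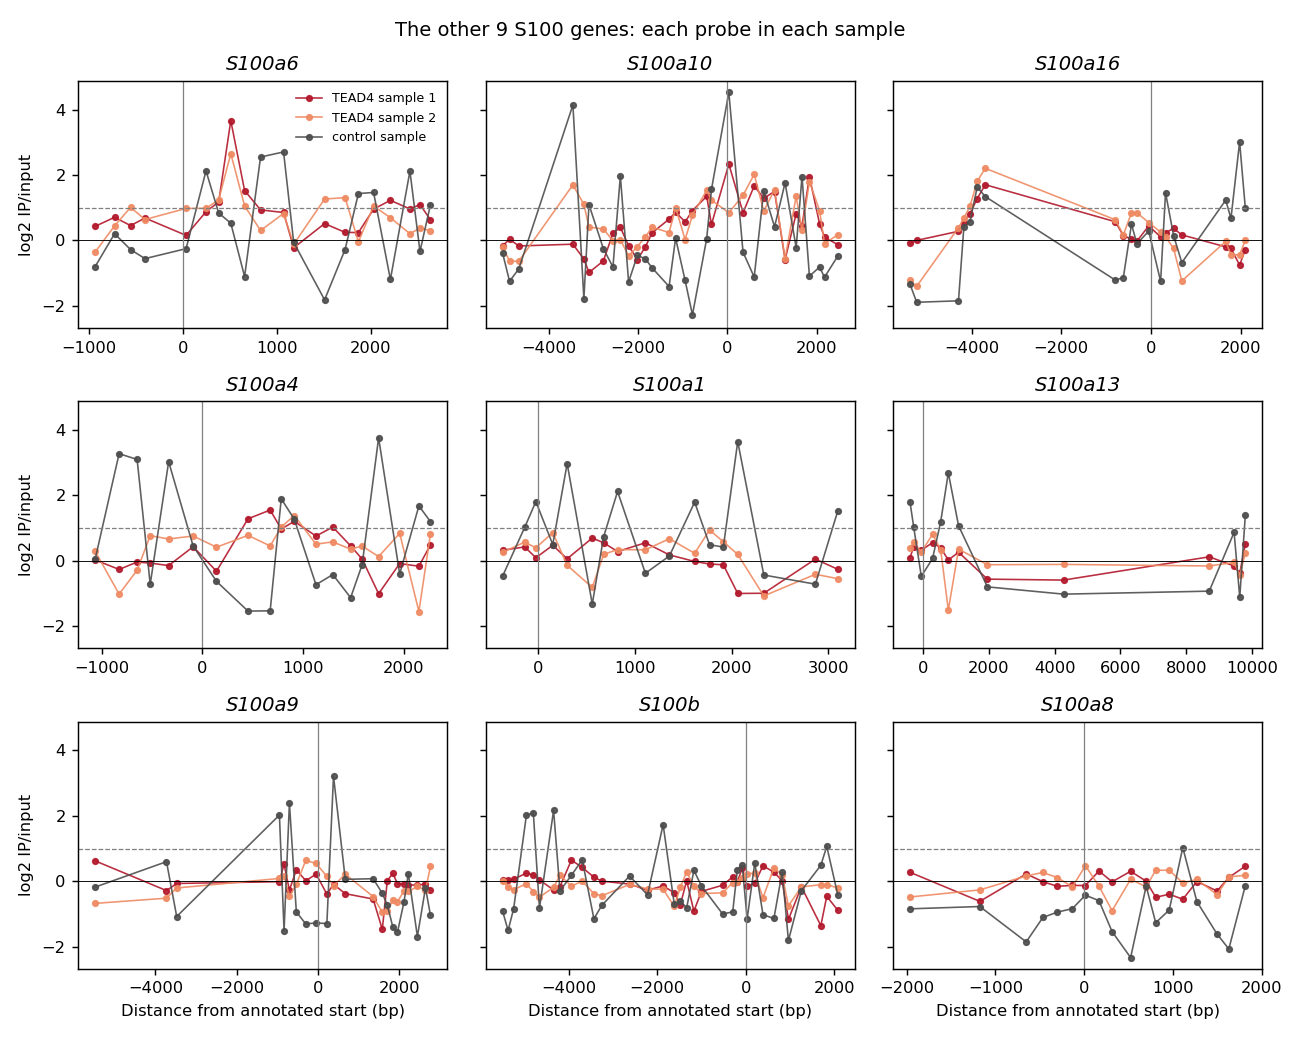
Log2 IP/input of each probe (y axes) against its distance in bp from the annotated start (x axes) for the other 9 S100 genes, in TEAD4 sample 1 (red), TEAD4 sample 2 (orange) and the control sample (grey). S100a6 peaks at +508, with 3.66 and 2.65 in the TEAD4 samples, and S100a16 is highest at the last probe of its upstream block, at -3694.

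Ordered by TEAD4 mean, the genes ran S100a11, S100a6, S100a10, S100a16, S100a4, S100a1 with S100a13, S100a9, S100b and S100a8. Only 3 steps in this order separated the duplicates of neighbours without overlap. They were S100a11 over S100a6 (a difference of 1.34), S100a4 over S100a1 (0.56) and S100a13 over S100a9 (0.29). In the other steps, S100a6 to S100a4 and S100a9 to S100a8, the duplicates of neighbours overlapped. In all, 4 of 10 S100 genes were enriched over input, S100a6, S100a10, S100a11 and S100a16, against 5.19% of all genes. Since the genes were proposed with this enrichment known, nothing is read from that difference. Over genes with 9 to 34 windows, the range of the S100 genes, the share was 4.87%. With the median of a window's probes in place of the mean the same 4 of 10 were enriched, against 5.59% of all genes, within 2000 bp of the start 3 of 10 against 4.03%, and after normexp background correction 2 of 10 against 3.35%. At 1.5-fold S100a4 joined them, 5 of 10 against 20.2% of all genes, and at 3-fold S100a11 alone was left, 1 of 10 against 0.78% of all genes. The median top window was 0.71 over the S100 genes and 0.40 over all genes. S100 genes had a median of 19 windows, against 25 over all genes.

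Each top window was also read in the TEAD4 sample that had not chosen it, to describe how far the value hung on that choice. The duplicates may not be separate cultures, and S100a11 was chosen with its values in both known. For S100a11 the reading is therefore no independent check. For S100a11 the window chosen in sample 1 read 2.55 in sample 2, and the window chosen in sample 2 read 2.99 in sample 1. For S100a16, S100a4 and S100a13 the same window was also chosen in both samples. S100a6 had different choices, at +655 and +244, which read 1.18 and 1.48 in the other sample, and so had S100a10, at +352 and +602, which read 1.29 and 1.32. For S100a1 the choices at +819 and +1355 read 0.02 and 0.15 in the other sample, below the mean of 0.43 in its top window. For S100b the window chosen in sample 1, at -3698, read -0.24 in sample 2. For S100a8 and S100a9 the values in the sample not used lay between -0.08 and 0.02.

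The tiled stretches differed between genes, from -5307 to +2511 for S100a11 and from -937 to +2635 for S100a6, so medians over all windows cover unlike spans. The median of all windows of S100a11 was 0.04 in the TEAD4 samples, against -0.00 in the control, although 7 of its 34 windows were enriched. For S100a6 it was 0.72 in the TEAD4 samples, against 0.49 in the control. For S100a10 it was 0.60 in the TEAD4 samples, against -0.16 in the control. In the span from -937 to +2477, tiled for all 3 genes, the median window in the TEAD4 samples was 1.01 for S100a11, 0.72 for S100a6 and 0.87 for S100a10, against 0.24, 0.49 and 0.44 in the control. Over all its windows, S100a1 had a median of 0.26 in the TEAD4 samples, against 1.00 in the control, and S100a8 one of -0.04 in the TEAD4 samples, against -0.93 in the control. The top window lay more than 200 bp inside the gene for 5 of 10 S100 genes, against 43.4% of all genes.

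**Figure D4:**
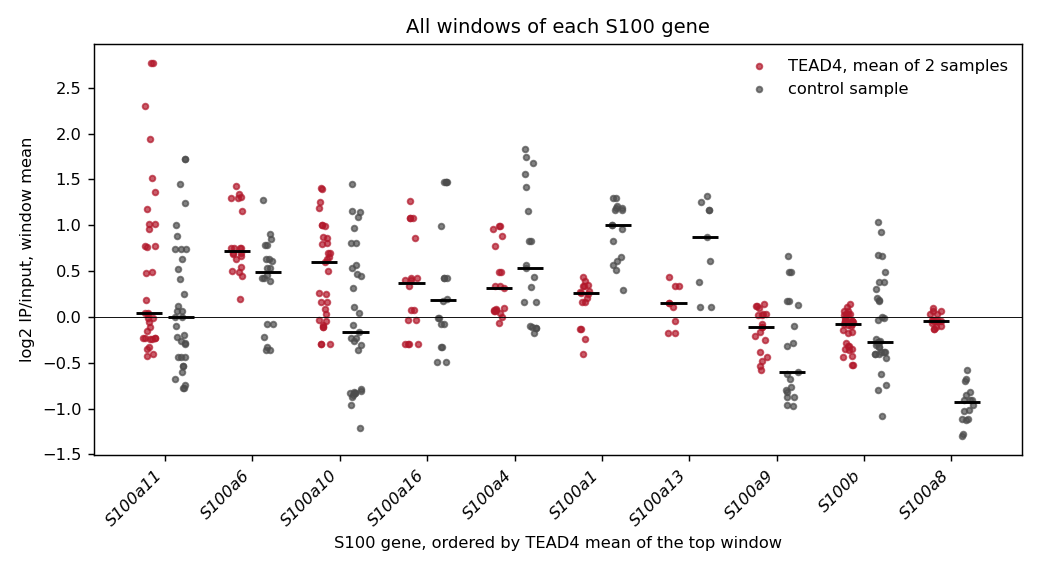
Log2 IP/input of every window (points, y axis) of each S100 gene (x axis), as the mean of the 2 TEAD4 samples in red and the control sample in grey, with medians as black lines. S100a11 has a few high TEAD4 windows over a median of 0.04, and S100a8 lies below 0 in all control windows.

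The design also compares TEAD4 with the empty vector, which asks what the Flag precipitation brings down without tagged TEAD4. With 1 control sample there was no spread on that side, and limma assumed that it varied like the TEAD4 samples, with 1 residual degree of freedom. Most of the weight lay on a variance pooled over all windows of a design (prior degrees of freedom 13.4 and 13.9). The SD over all windows, 1.04 in the control against 0.38 and 0.40 in the TEAD4 samples, goes against the assumption of like variation. The adjusted p-values may therefore be far too small and are not read as strength of evidence. The TEAD4 values that led to the choice of these genes enter this comparison too, so it is not independent of that choice. By limma over all genes, S100a11, S100a10, S100a8 and S100a6 were called higher in TEAD4 than in the control, 4 of 10 against 12.4% of all genes. S100a1, S100a4, S100a13, S100a16 and S100b were called lower, 5 of 10 against 81% of all genes, and S100a9 was not called (limma, adjusted p = 0.13).

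S100a11 was higher by 2.71 on the log2 scale in the window at +2352 (limma, adjusted p = 1.51e-05), in 2 of 2 TEAD4 samples. Under each of 6 other settings S100a11 was also called higher, by 1.86 to 4.70 on the log2 scale. These settings reuse the same samples, and S100a11 was chosen with its TEAD4 values known. The repeated calls are therefore no independent support. S100a10 was higher by 1.84 in a window at -1158, upstream of its top window (limma, adjusted p = 0.000554). That window read 0.75 and 0.51 in the TEAD4 samples, against -1.21 in the control, so it lay below 2-fold over input and the control was low. The call was lost with arrays scaled to a common spread (adjusted p = 0.151) and with normexp (adjusted p = 0.164). S100a6 was higher by 1.00 at +244 (limma, adjusted p = 0.0473), a call lost with windows of 1000 bp on each side (adjusted p = 0.108) or with arrays scaled to a common spread (adjusted p = 0.151). The S100a6 difference in the top window was 0.23 without TEAD4 sample 2, where another window is the top one, and 0.59 with the window median. S100a8 was higher by 1.40 at -653 (limma, adjusted p = 0.00389), where the TEAD4 samples were near input level and the control far below it. The call was lost with a common spread (adjusted p = 0.81) and with normexp, where the difference was 0.47 (adjusted p = 0.735).

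The windows behind the lower calls read 1.03 to 1.75 in the control and -0.70 to 0.33 in the TEAD4 samples, and the calls depended on the scaling. S100a4 was called lower by limma at -648, with 1.75 in the control, and S100a16 at +1666, with 1.48 in the control. With arrays scaled to a common spread, or with the background corrected by normexp, 0 of 10 were called lower by limma (0 also at an unadjusted p under 0.05). With loess within arrays S100a1 was the 1 gene called lower, and S100a4 was called higher with loess as with normexp. Of all genes called by limma, 13.3% were higher than the control, against 79.0% with arrays scaled to a common spread, 28.9% with normexp and 22.9% with loess. In the control, 8 of 10 S100 genes reached 2-fold over input in some window, all but S100a8 and S100a9, against 85.6% of all genes. The median window over all genes was -0.01 in the TEAD4 samples, against 0.26 in the control.

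By size alone, the 2-fold rule against the control in both TEAD4 samples was passed upwards by 3 of 10 S100 genes, S100a8, S100a10 and S100a11, against 29.9% of all genes. At least 2-fold below it were 4 of 10, S100a1, S100a4, S100a16 and S100b, against 81.8% of all genes. Asking for 2-fold over both input and control in the same window left S100a10 and S100a11, 2 of 10 against 2.55% of all genes. S100a10 passed in the window at +602, with 1.32 and 1.46 in the TEAD4 samples, against 0.11 in the control. Its top window at +352 did not pass. The genes were proposed with TEAD4 values known, so nothing is read from this count. The top window was above the control in 8 of 10, against 43% of all genes, but that window was picked on TEAD4 values, which favours TEAD4.

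S100 proteins act through partners, and 40 such genes were listed as annexins, receptors, targets, other calcium sensors and other S100 genes, of which 37 had a window. Of these, 3 were enriched over input, against 5.19% of all genes, and their median top window was 0.56. They comprised 2 of 12 annexins, 0 of 5 receptors, 1 of 9 targets, 0 of 5 other calcium sensors and 0 of 6 other S100 genes. Anxa1, the annexin that S100a11 binds, gave 1.47 and 1.68 in the TEAD4 samples, against 0.99 in the control, at +639. Anxa7 gave 1.41 and 1.09 in the TEAD4 samples, against 1.68 in the control. Trp53, the tumour suppressor p53, gave 1.25 and 1.59 in the TEAD4 samples, against 2.25 in the control. Of the 3, Anxa1 alone was above the control in both TEAD4 samples.

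Anxa2, the annexin of S100a10, missed the rule in 1 sample, with 1.30 and 0.90 in the TEAD4 samples, against -0.36 in the control. Ager, the receptor for secreted S100 proteins (RAGE), gave 0.25 and 0.40 in the TEAD4 samples, against -0.03 in the control. Ryr1, the ryanodine receptor of skeletal muscle, gave 0.60 and 0.97 in the TEAD4 samples, against 0.51 in the control. Neither Ager nor Ryr1 reached 2-fold in either TEAD4 sample. Tlr4, a receptor for S100a8 with S100a9, narrowly missed the rule with 1.21 and 0.996 in the TEAD4 samples, against -0.34 in the control. By their top windows, Myh9, Sri, Anxa4, Anxa5 and Calm3 also missed it in 1 sample. Among them, Myh9 gave 0.94 and 1.47 in the TEAD4 samples, against -0.32 in the control. Sri gave 0.99 and 1.16 in the TEAD4 samples, against -0.31 in the control. Anxa5 gave 0.63 and 1.19 in the TEAD4 samples, against 0.27 in the control. At Anxa4 and Calm3 the control was above both TEAD4 samples. Anxa4 gave 0.40 and 1.10 in the TEAD4 samples, against 1.28 in the control. Calm3 gave 0.53 and 1.09 in the TEAD4 samples, against 1.85 in the control. Tlr4, Myh9, Sri, Anxa4, Anxa5 and Calm3 were named after their values were seen.

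The genes whose top window was most like that of S100a11 over the 3 samples, by Euclidean distance, were Map4k4 (0.37), Stbd1 [D5Ertd593e] (0.52) and Trip6 (0.54). Map4k4 encodes a kinase, and its window at +1301 gave 2.71 and 2.69 in the TEAD4 samples, against -0.15 in the control. Trip6 encodes a LIM-domain protein of the zyxin family, and its window at +156 gave 2.85 and 2.60 in the TEAD4 samples, against 0.58 in the control. Stbd1, a glycogen-binding protein, had its window at -3616, with 2.50 and 2.45 in the TEAD4 samples, against -0.04 in the control.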

How the data were processed

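The intensities were deposited by the authors as Agilent Feature Extraction 9.5.3.1 output, in which processed signals are background-subtracted, detrended and dye-scaled, per the file headers. The deposited log10 ratios and series matrix values hold the same IP over input. The build of the coordinates: not given in the sources used here.

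Processed signals were turned into log2 IP/input and median-centred per array. Non-uniform spots, controls and unplaced probes were dropped, keeping 236180 and 235690 probes on designs 1 and 2. Windows of TEAD4 and control were fitted in limma 3.58.1 (R 4.3.3), design by design, then combined into a Simes p per gene, with Benjamini-Hochberg adjustment over 16533 genes at 0.05 (two-sided). This step was also run on simulated data in which all 3 samples had the spread of the TEAD4 duplicates. That run cannot show how the step does with the wider spread of the real control. A gene's top window is that with the highest TEAD4 mean. All 10 members are named, with partners that pass the 2-fold rule, Anxa1, Anxa2, Ager and Ryr1, and the 3 genes nearest to S100a11. Tlr4, Myh9, Sri, Anxa4, Anxa5 and Calm3 were added after their values were seen. Members and lists were chosen with earlier results of these data known. Sequences are RefSeq's, on GRCm38.p6. P-values rest on the spread between 2 TEAD4 samples, which limma draws towards a variance pooled over all windows of a design. That pooled value had 13.4 and 13.9 prior degrees of freedom on designs 1 and 2, against 1 residual, so it weighs most. The control adds no spread of its own, and the arrays' number limits precision. Its wider spread over windows does not enter the fit, so the p-values may be too small. The alternatives were window width and probe minimum, background correction, loess, scaling to a common median absolute deviation, distance from the start, the fold and leaving out a TEAD4 sample; the window median, the span tiled for 3 genes alike, the partner counts under these alternatives and the counts by size against the control under other windows, distances and the series matrix were chosen after seeing the data.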

Additional observations from a re-analysis of the deposited data

How the results depend on the processing

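S100a11 remained the top S100 gene under all 10 alternatives, with its top value between 1.91 (1000 bp windows) and 3.02 (window median) in the unscaled settings and 4.73 with arrays scaled to a common spread. The difference of its top window from the control was 1.41 within 2000 bp of the start and 4.70 with a common spread. That of S100a10, 0.27, was 1.35 without TEAD4 sample 1. The count of enriched S100 genes, 4, became 2 with normexp, which left S100a6 and S100a11, and 1 at 3-fold, and was 4 to 5 without 1 TEAD4 sample, where the share of all genes was 15.5% without sample 1 and 8.05% without sample 2, against 5.19% with both. S100a16 fell to 0.42 within 2000 bp of the start. The partner count, 3, became 5 with loess (5.38% of all genes), 5 with the window median (5.59%), 14 at 1.5-fold (20.2%) and 0 at 3-fold (0.78%), and was 6 to 9 without 1 TEAD4 sample (8.05% and 15.5%). The S100 genes above the control by size, 3, became 6 with loess, 5 with arrays scaled to a common spread and 6 with the window median, and were 4 to 6 without 1 TEAD4 sample. Those below, 4, became 0 with normexp, 1 with loess and 1 with a common spread, and were 5 to 6 without 1 TEAD4 sample. The main shares of all genes were 29.9% above and 81.8% below, and those under these alternatives are not given here. Nothing about the S100 genes is therefore read from these counts by size. By limma, higher calls (4) became 1 with a common spread and 7 with loess, and lower calls (5) became 0 with a common spread, 0 with normexp and 1 with loess. Over all genes limma called 2048 higher and 13390 lower, against 128 and 34 with a common spread, 327 and 803 with normexp and 3438 and 11588 with loess. The cause was not tested. Among the other values of single genes, 127 moved by less than the SD of the duplicates and 83 by more. Some of the 127 could not have moved further, since the series matrix holds the same ratios. Leaving out 1 of 2 duplicates in an unchanged window also moves the mean by less than their SD. The tally is therefore no measure of robustness. No paired analysis was possible because the control has 1 sample. The control signal, 1.84 and 2.04 times background, limits every comparison with it.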
